A study of Mus musculus with 3 samples.

Results

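The 10 genes described here encode the mTOR kinase, the subunits that make up its complexes and the proteins that switch it on or off: Mtor, Rptor, Rictor, Mlst8, Deptor, Rheb, Tsc1, Tsc2, Ddit4 and Sesn2. The list is one of gene names, with no measured value in its rule, although it was drawn up with earlier results of these data known. All 10 were found among the 50600 genes of the deposited tables. mTOR is a protein kinase that couples nutrients, growth factors and energy to protein synthesis and growth. It works in a pair of complexes: mTORC1, built around the scaffold Raptor (Rptor), and mTORC2, built around Rictor. The small GTPase Rheb activates mTORC1 at the lysosome, and the TSC complex (Tsc1 with Tsc2) turns Rheb off. Regulatory T cells (Treg) hold back other immune cells and are defined by Foxp3, a transcription factor. In them mTORC1 is known to be needed for suppressive function, while strong mTOR signalling is known to hinder the generation of new Treg from naive cells.

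RNA was measured by sequencing in 3 libraries of Treg from C57BL/6NJ mice, which the labels call primary cells and number as biological replicates 2, 3 and 4. Per the file headers, the cells had been activated for 16 hours, a treatment that all 3 libraries share, and no second condition was analysed here. The labels name the assay as total RNA but link a library protocol whose name refers to polyadenylated RNA, and they link a differentiation protocol for CD4 T cells. All 3 libraries carry the same donor identifier, with the age unknown and the sex not collected. Each SD and p-value thus reflects only how far these libraries differ, and how much of that is technical is not known.

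The libraries held 41222058 to 99097524 assigned fragments, of which 28500, 33760 and 74204 fell on the 10 genes in replicates 2, 3 and 4. Levels are TPM, the count divided by the length of a gene's exons and scaled to a fixed total per library. All 6 Treg markers, among them Foxp3 at 80.9 ± 3.97 TPM (SD, n = 3), and all 5 T cell markers reached 1 TPM in every library. Of 16 markers of other cells, 2 did so, Cd8b1 at 26.9 TPM and Epcam at 1.86 TPM, while the neutrophil markers S100a8 and S100a9 had no fragment and the whole list summed to 28.1 to 33.3 TPM. Sex-linked transcripts set the libraries apart. Xist, which silences an X chromosome, had 27625, 85 and 18895 fragments in replicates 2, 3 and 4, and the Y-linked Ddx3y had 8, 2932 and 4314. Replicate 2 thus had Xist with almost no Ddx3y, replicate 3 the reverse, and replicate 4 both. Replicates 2 and 3 differed here as cells of different sex do, although the labels give the same donor identifier. Whether animals were separate or pooled is not given. Leaving out 1 library moved the mean TPM of the 10 genes by 0.913 to 1.08 times. The part of the sex-linked differences in any result was not tested.

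All 10 genes reached 1 TPM in every library, beside 9926 of 21764 protein-coding genes (45.6%). The median of the 10 mean levels was 38.2 TPM, beside a median of 32.3 TPM over those 9926 genes. Their means spanned from 1.87 TPM for Deptor to 159 TPM for Ddit4. The result is a level per RNA pool: in bulk RNA, fewer cells with a transcript and less of it per cell cannot be told apart.

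The sequences just before the start sites of Ddit4, Sesn2 and Mtor are shown because Ddit4 and Sesn2, the stress-induced inhibitors, had the same order of libraries while Mtor had another. That order was not particular to the inhibitors, since other pathway genes such as Akt1 had it too. They are RefSeq sequences of build GRCm38.p6, printed 5′ to 3′ on the strand of each gene, and they end where the first annotated exon begins. Capitals mark any match, on either strand, to 4 motifs: TGATGNAA (the composite element read by ATF4 and its partners), TGACGT (the core of the cAMP response element), ACGTG (the core of the hypoxia response element) and GGGCGG (the GC box).
Ddit4, chr10:59951835-59952020, minus strand, 186 bases: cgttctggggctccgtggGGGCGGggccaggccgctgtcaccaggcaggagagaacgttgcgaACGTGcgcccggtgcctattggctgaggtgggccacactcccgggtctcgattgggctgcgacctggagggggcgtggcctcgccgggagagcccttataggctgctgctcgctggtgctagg
Sesn2, chr4:132510502-132510706, minus strand, 205 bases: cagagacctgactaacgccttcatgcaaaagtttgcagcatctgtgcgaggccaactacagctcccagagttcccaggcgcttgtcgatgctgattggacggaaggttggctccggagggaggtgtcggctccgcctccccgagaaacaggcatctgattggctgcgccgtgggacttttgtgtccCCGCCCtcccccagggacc
Mtor, chr4:148448332-148448581, plus strand, 250 bases: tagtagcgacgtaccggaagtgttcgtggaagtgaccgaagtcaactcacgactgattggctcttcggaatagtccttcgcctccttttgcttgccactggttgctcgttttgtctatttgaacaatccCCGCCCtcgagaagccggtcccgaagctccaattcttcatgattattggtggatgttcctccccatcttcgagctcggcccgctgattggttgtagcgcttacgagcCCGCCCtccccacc

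In the 250 bases before the RefSeq start site, Ddit4 had 1 ACGTG and 1 GGGCGG, Sesn2 had 1 GGGCGG and Mtor had 2. Among 32817 mouse promoters of that length, 16.6% held ACGTG and 32.7% held GGGCGG, so these motifs are common. TGATGNAA was in 3.45% and TGACGT in 6.46% of them, and neither was in any of the 9 members with a promoter entry. Of the other members, Rptor had 1 ACGTG, Rheb had 2 overlapping ACGTG matches on opposite strands and 1 GGGCGG, and Rictor had 4 GGGCGG. A match is a run of letters, not a bound site, and the absence of a match says only that these letters were not in this window. Rictor had the richest window, with 81.2% G or C, against 37.6% for Rptor and 70.0% for Ddit4.

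Of the 5 subunits among the 10 genes, the kinase and its small partner were the most abundant over merged exons. Mtor (ENSMUSG00000028991.15, chr4:148448611-148557683 of mm10, plus strand, 56 merged exon blocks) had 47.0, 41.4 and 52.9 TPM in replicates 2, 3 and 4, from 5799, 5996 and 15641 fragments. Replicate 4 was highest and replicate 3 lowest, and the mean was 47.1 ± 5.78 TPM (SD, n = 3). Mlst8 (chr17:24473550-24479078, minus strand) encodes the small WD-repeat subunit that both complexes share. It had 59.1, 53.2 and 56.04 TPM in replicates 2, 3 and 4, a mean of 56.1 ± 2.97 TPM. Within each library Mlst8 lay above Mtor, but its range of 53.2 to 59.1 TPM began only just above the 52.9 TPM of Mtor in replicate 4. Over the longest transcript Mlst8 averaged 35.3 ± 1.94 TPM, below the 40.1 ± 4.96 TPM of Mtor. That transcript comes from a later annotation and has 3855 bases, more than the 3366 merged exon bases over which Mlst8 was counted. It thus includes bases where no fragment could be counted, and the order of Mlst8 and Mtor by transcript length was not settled.

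The scaffolds that define the complexes lay below Mtor over merged exons. Rptor (chr11:119602905-119899576, plus strand), the scaffold that brings substrates to mTORC1, had 27.8, 29.4 and 30.9 TPM in replicates 2, 3 and 4. Rictor (chr15:6708381-6800398, plus strand), which with Sin1 gives mTORC2 its substrates, had 24.8, 20.4 and 23.8 TPM. Rptor was higher than Rictor in each of the 3 libraries and their ranges did not overlap, at means of 29.3 ± 1.55 and 23.0 ± 2.33 TPM (SD, n = 3 each). The within-library difference of Rptor minus Rictor was 0.34 ± 0.18 on the log2(TPM + 1) scale, with 0.16, 0.51 and 0.36 in replicates 2, 3 and 4.

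Deptor (chr15:55112317-55259271, plus strand), which binds mTOR and lowers the activity of both complexes, was the lowest of the 10. It had 1.74, 2.20 and 1.68 TPM in replicates 2, 3 and 4, resting on 188, 280 and 437 fragments. Replicate 3 was the highest, and the mean of 1.87 ± 0.285 TPM (SD, n = 3) placed Deptor at the 2.42 percentile of those 9926 protein-coding genes. In TPM it stood at 0.0407 ± 0.0112 of Mtor (SD, n = 3 libraries). Its longest transcript shared stretches of up to 111 bases at 95% identity or more with Zscan2, Trub1 and Glcci1. No other member had such a match of 100 bases or more.

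Rheb (chr5:24802823-24842624, minus strand) had 19.9, 18.5 and 19.1 TPM in replicates 2, 3 and 4, a mean of 19.1 ± 0.713 TPM. The libraries lay close together, and by this measure Rheb was below Mtor in each of them. Rheb minus Mtor was -1.25 ± 0.16 on the log2(TPM + 1) scale (SD, n = 3). That order depended on the length used. The merged exons of Rheb cover 7721 bases, whereas its longest protein-coding transcript has 1784. Divided by the transcript length, Rheb averaged 59.7 ± 2.35 TPM and Mtor 40.1 ± 4.96 TPM, and the difference turned to 0.57 ± 0.15. Which gene has the more abundant transcript was therefore not settled by these counts.

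The subunits of the TSC complex were unequal. Tsc1 (chr2:28641228-28691167, plus strand), which encodes hamartin and stabilises its partner, had 19.2, 18.8 and 19.9 TPM in replicates 2, 3 and 4. Tsc2 (chr17:24595937-24632629, minus strand), which encodes tuberin, the subunit that makes Rheb hydrolyse GTP, had 45.9, 46.4 and 53.3 TPM. The ranges were far apart, with means of 19.3 ± 0.594 TPM for Tsc1 and 48.5 ± 4.12 TPM for Tsc2. Tsc1 minus Tsc2 was -1.29 ± 0.08 on the log2(TPM + 1) scale, and -0.63 ± 0.08 when the longest transcript gave the length. Tsc1 was lower than Tsc2 in all 3 libraries on both scales.

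The stress-induced inhibitors had the highest and one of the middle levels. Ddit4 (ENSMUSG00000020108.4, chr10:59949669-59951834, minus strand), also called Redd1, is induced by hypoxia, energy stress and glucocorticoids and acts through the TSC complex to lower mTORC1 activity. It had 134, 182 and 160 TPM in replicates 2, 3 and 4, from 2873, 4577 and 8212 fragments. All 3 values lay above every value of the other 9 genes, and the mean of 159 ± 23.9 TPM (SD, n = 3) was at the 87.4 percentile of those 9926 protein-coding genes. Sesn2 (chr4:132492032-132510501, minus strand) encodes a leucine sensor that restrains the Rag branch when leucine is short. It had 42.8, 54.5 and 51.0 TPM in replicates 2, 3 and 4, a mean of 49.4 ± 6.03 TPM.

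Ddit4 and Sesn2 shared their order over the libraries, with replicate 3 highest and replicate 2 lowest. Other pathway genes had this order too, among them Akt1 (262, 301 and 288 TPM in replicates 2, 3 and 4) and Akt1s1 (45.8, 55.7 and 50.9 TPM). The ratio of Ddit4 to Sesn2 varied little. Ddit4 minus Sesn2 was 1.63, 1.72 and 1.63 in replicates 2, 3 and 4, a mean of 1.66 ± 0.05 on the log2(TPM + 1) scale and 3.16-fold. The transcript length gave 1.65, but it equals the merged exon length for both genes (1755 bases for Ddit4 and 3475 for Sesn2). This pair was therefore no check on the length used.

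**Figure D1:**
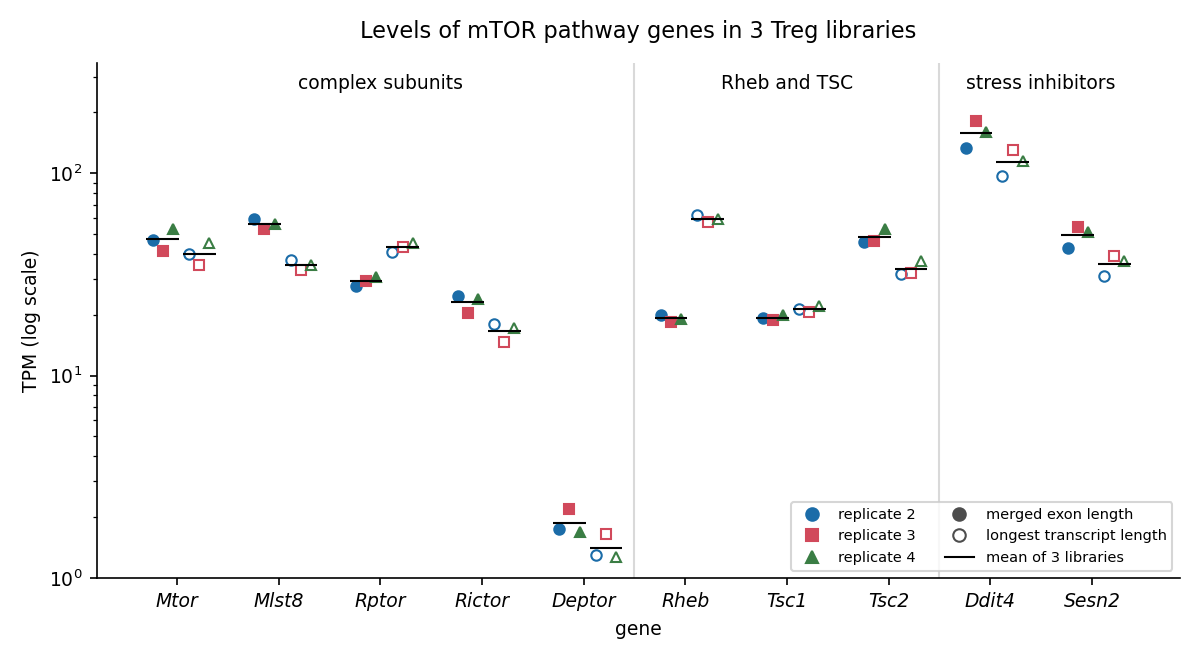
Level of each of the 10 genes in TPM (vertical log axis) in replicates 2, 3 and 4, with filled symbols for TPM over merged exon length, open symbols for TPM over the longest protein-coding transcript and lines for the mean of 3 libraries. Ddit4 is highest and Deptor lowest on both scales, and Rheb moves most between the scales, averaging 19.1 and 59.7 TPM.

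Ordered by mean TPM over merged exons, the genes ran Ddit4, Mlst8, Sesn2, Tsc2, Mtor, Rptor, Rictor, Tsc1, Rheb and Deptor. Ddit4 stood apart from Mlst8. The next 4 formed a run from 47.1 to 56.1 TPM in which each gene's range over libraries overlapped that of its neighbour, so neighbours in it were not resolved. Its ends, Mlst8 and Mtor, did not overlap over merged exons. Mtor and Rptor, Rptor and Rictor, and Rictor and Tsc1 had ranges that did not overlap, although the highest Tsc1 value of 19.9 TPM lay close under the lowest Rictor value of 20.4 TPM. Tsc1 and Rheb overlapped, and Deptor stood well below both. Ordered by TPM over the longest transcript, Rheb moved to the second place and Rictor to the ninth, while Ddit4 and Deptor kept the ends. Rptor, Mtor, Sesn2, Mlst8 and Tsc2 then ran from 43.2 down to 33.6 TPM, each overlapping its neighbour. Within each library, however, Rptor lay above Mtor over that length. With that length the TPM of a gene whose length did not change also fell to 0.72 of its value, because the library total in TPM is fixed; Ddit4 and Sesn2 show this.

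The design allowed 5 comparisons between partner genes within a library. Rptor minus Rictor, Mlst8 minus Mtor and Ddit4 minus Sesn2 were positive in 3 of 3 libraries over merged exons, and Rheb minus Mtor and Tsc1 minus Tsc2 were negative in 3 of 3. Mlst8 minus Mtor was the smallest in size, at 0.25 ± 0.15 (0.32, 0.35 and 0.08 in replicates 2, 3 and 4). Each pair gave p = 0.25 in an exact permutation test (two-sided, by flipping signs), and 0.25 after Benjamini-Hochberg adjustment over the 5 pairs, the smallest p that 3 libraries allow. None can therefore pass a threshold of 0.05. The sign changed with the length in 2 of the 5 differences: Rheb minus Mtor, as above, and Mlst8 minus Mtor, which became -0.17 ± 0.15 over the longest transcript. For Mlst8 that transcript is longer than the exons counted, as given above. Rptor minus Rictor kept its sign but grew to 1.33 ± 0.17, because the merged exons of Rptor cover 13471 bases against 6594 for its longest transcript.

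**Figure D2:**
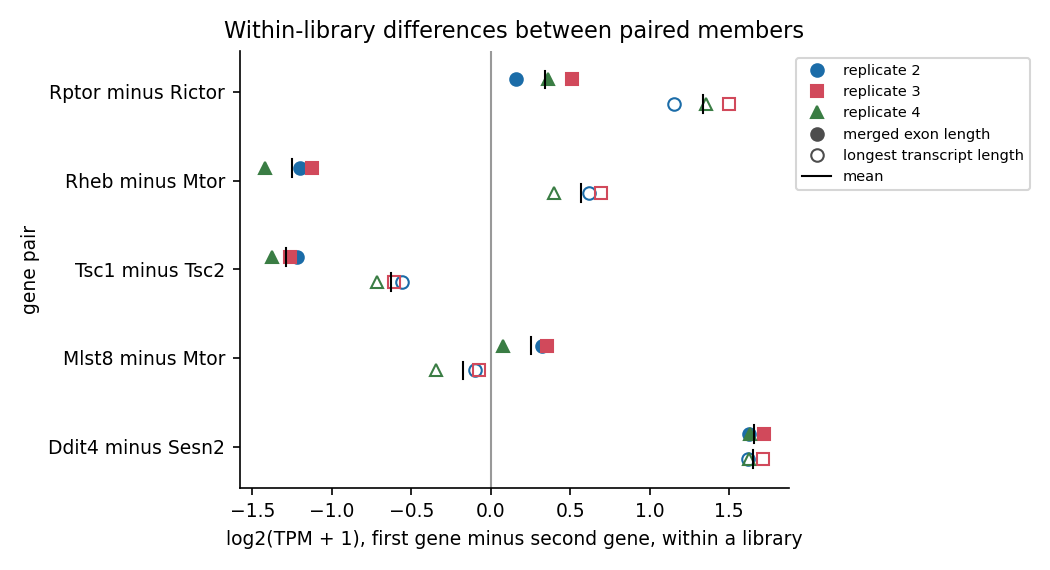
Difference in log2(TPM + 1) between partner genes within a library (horizontal axis, first gene minus second gene), for replicates 2, 3 and 4, with filled symbols over merged exon length, open symbols over the longest transcript and a bar at each mean. Ddit4 minus Sesn2, whose genes have the same length on both scales, sits at 1.66 and 1.65. Rheb minus Mtor moves across 0, with means of -1.25 and 0.57.

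Between the libraries, none of the 10 genes differed by as much as 1.5 times. A chi-square test of equal rates was run on the counts of 13688 genes. A call needed a Benjamini-Hochberg adjusted p under 0.05 and at least a 2-fold ratio of the highest CPM over the lowest. CPM is the count scaled for the library total after the TMM adjustment given below. Such calls took in 10.9% of all genes tested, 0.635% of the protein-coding genes at 1 TPM in every library, and 0 of the 10. With a ratio of at least 1.5 the test called 16.1% of genes, 4.08% of those protein-coding genes and again 0 of the 10. By the adjusted p alone it called 70.8% of genes, 77.1% of those protein-coding genes and 8 of the 10, all but Rheb and Tsc1. The test treats each fragment as independent, and it sets libraries, not conditions, against each other. At this depth it passes small differences, and 8 of 10 is close to both shares. At expressed levels few genes pass either ratio, so 0 of 10 does not set these genes apart.

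The highest-to-lowest CPM ratio of the 10 ran from 1.04 for Tsc1 to 1.38 for Ddit4. Its median was 1.18, beside 1.19 over all genes tested and 1.12 over the 7568 protein-coding genes that had 10 TPM or more throughout. Ddit4 (ratio 1.38, chi-square adjusted p = 1.87e-40), Deptor (1.34, 0.000945), Sesn2 (1.30, 3.08e-16) and Mtor (1.25, 2.74e-49) varied most. Tsc1 (1.04, 0.142) and Rheb (1.06, 0.234) varied least. The coefficient of variation of TPM ran from 3.08% for Tsc1 to 15.2% for Deptor, with a median of 9.31% over the 10, beside a median of 6.09% and quartiles of 3.86% and 8.81% over the 7568 genes.

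The genes did not share 1 pattern over the libraries. Replicate 2 was highest for Rictor, Mlst8 and Rheb, replicate 3 for Deptor, Ddit4 and Sesn2, and replicate 4 for Mtor, Rptor, Tsc1 and Tsc2. That is 3, 3 and 4 of the 10, where 42.1%, 25.4% and 32.5% of the 7568 genes were highest in replicates 2, 3 and 4.

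Library differences also went with base composition. Over 7567 of those genes, log2 CPM of a library minus the mean of the others correlated with the GC content of the longest transcript at a Spearman's rho of -0.76 in replicate 2, 0.47 in replicate 3 and 0.53 in replicate 4. These points are genes that share a library and are not independent replicates. Those genes were put in 4 equal sets by GC, and in replicate 2 the set of lowest GC had a median of 0.16 and the set of highest GC -0.15.

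The 10 genes lay across that range. Rictor, at 42.5% GC, was at 0.16 in replicate 2, the same as the median of its set, but at -0.22 in replicate 3 beside -0.07 and at 0.07 in replicate 4 beside -0.09. Rptor, at 56.5% GC, was at -0.13 in replicate 2, beside -0.15 for its set. In replicate 2 both thus lay where genes of their composition lay.

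The inhibitors went further. Ddit4 (57.9% GC) and Sesn2 (58.7% GC) were at -0.36 and -0.31 in replicate 2, beside the -0.15 of their set. In replicate 3 they were at 0.34 and 0.25, beside 0.08. Deptor (44.3% GC) went against its set, at 0.36 in replicate 3 beside -0.07, on its low counts. Mtor (54.2% GC) was at -0.24 in replicate 3 beside 0.04, and at 0.24 in replicate 4 beside 0.01. The part of base composition in these differences was not tested.

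**Figure D3:**
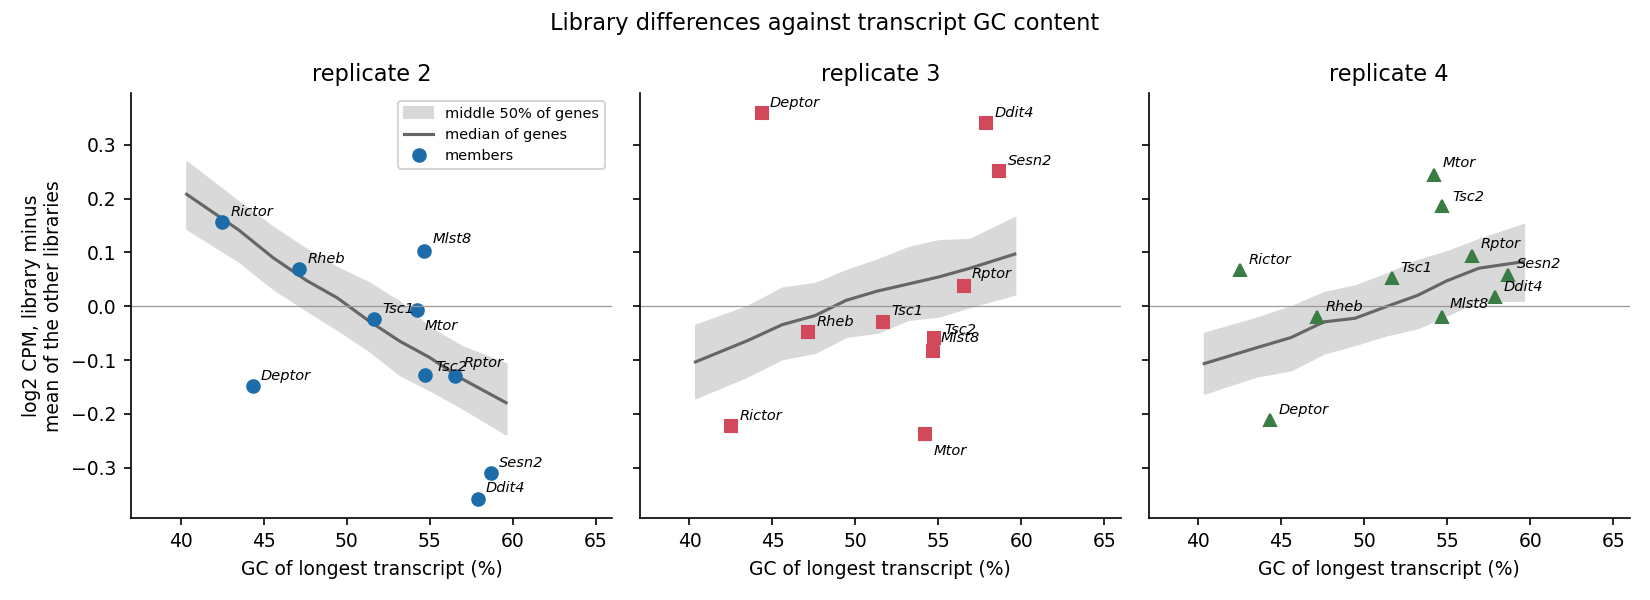
Log2 CPM of replicate 2, 3 or 4 minus the mean of the other libraries (vertical axis) against the GC content of the longest transcript in percent (horizontal axis); points are the 10 genes, the line and band the median and middle 50% of 7567 protein-coding genes in 10 bins of GC. Ddit4 and Sesn2 lie below the band in replicate 2 and above it in replicate 3.

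The other subunits of the complexes were all present. All 7 were at 1 TPM or above in each library, and their median was 37.9 TPM. At a ratio of 2, 0 were called, beside only 0.635% of the protein-coding genes at 1 TPM in every library. Tti1 (73.9 ± 2.37 TPM) and Telo2 (37.9 ± 3.54 TPM), which help assemble mTOR and related kinases, and Mapkap1 (56.7 ± 3.52 TPM), which encodes Sin1 of mTORC2, all lay above Rptor and below Ddit4. Over the longest transcript Telo2 was at 61.9 TPM. Akt1s1, which encodes the mTORC1 inhibitor Pras40, averaged 50.8 ± 4.92 TPM, and Tbc1d7, the third TSC subunit, 31.3 ± 4.26 TPM. The Protor genes Prr5 (1.76 ± 0.294 TPM) and Prr5l (2.95 ± 0.244 TPM) of mTORC2 were low, near the level of Deptor (SD, n = 3 for each).

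Of the 4 paralogs of members, 3 reached 1 TPM in every library. Sesn2 was the highest sestrin at 49.4 TPM, beside Sesn3 at 38.0 ± 3.36 TPM and Sesn1 at 18.0 ± 1.77 TPM over merged exons. Over the longest transcript the order turned, with Sesn3 at 45.8 TPM, Sesn2 at 35.6 TPM and Sesn1 at 13.6 TPM. Rhebl1, the close relative of Rheb, had 22.1, 17.1 and 15.3 TPM in replicates 2, 3 and 4, whereas Rheb ran from 18.5 to 19.9 TPM. Over the longest transcript Rhebl1 averaged 20.1 TPM against 59.7 TPM for Rheb. Ddit4l, the paralog of Ddit4, had 0, 0 and 3 fragments.

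Upstream, every gene of the amino acid lists was detected. The Rag GTPases and the Ragulator that holds them at the lysosome reached 1 TPM in every library for 10 of 10 genes (median 48.5 TPM). They ran from Slc38a9, a lysosomal arginine sensor, at 3.05 TPM to Rraga at 159 TPM, with Lamtor5 level with it at 159 TPM. Over the longest transcript Lamtor1 was highest, at 194 TPM beside 115 TPM for Rraga. GATOR1, GATOR2 and KICSTOR, which pass amino acid signals to the Rags, reached 1 TPM in every library for 11 of 11 (median 25.2 TPM). They ran from Nprl3 at 16.1 TPM to Sec13, also a nuclear pore and COPII coat protein, at 217 TPM. Over the longest transcript Nprl3 was at 30.7 TPM and Sec13 at 368 TPM. Folliculin and further amino acid inputs did so for 6 of 6 (median 21.3 TPM), from Castor2 at 4.75 TPM to the leucyl-tRNA synthetase Lars at 253 TPM. None of these 27 genes was called between libraries at a ratio of 2 or of 1.5. Of all genes tested 10.9% and 16.1% were called, but only 0.635% and 4.08% of the protein-coding genes at 1 TPM in every library. The lack of calls thus does not set these lists apart.

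Growth factor and energy inputs were detected for most genes. In the PI3K to AKT list, 16 of 16 genes reached 1 TPM in every library (median 34.0 TPM). Pik3cd, the catalytic subunit that lymphocytes use, had 361 TPM, the highest, and the PI3K inhibitor Pik3ip1 had 2.93 TPM, the lowest. In the AMPK list, 8 of 10 did so (median 32.4 TPM). Cab39, a scaffold of the kinase that activates AMPK, had the highest mean at 180 TPM. Prkag1 was close at 177 TPM and lay above Cab39 in replicates 3 and 4, so the order was not resolved over merged exons. Over the longest transcript Cab39 was at 241 TPM and Prkag1 at 126 TPM. The catalytic subunit gene Prkaa2 averaged 0.198 TPM and Prkag3 had no fragment.

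Downstream, 11 of 12 mTORC1 substrates reached 1 TPM in every library (median 31.7 TPM). Larp1, a repressor of mRNAs for ribosomal proteins, was highest at 455 TPM, and Grb10 lowest at 0.022 TPM from 13 fragments in all. Of 8 mTORC2 substrates and their targets, 7 did so (median 57.4 TPM), led by Akt1 at 283 TPM. Sgk1, a kinase that mTORC2 activates, had 1.20, 1.10 and 0.977 TPM in replicates 2, 3 and 4. It thus missed the threshold in replicate 4 alone.

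All 7 genes for factors known to induce Ddit4 or Sesn2 reached 1 TPM in every library (median 35.4 TPM). Atf4, the factor of the amino acid response, was highest at 723 ± 19.3 TPM and Cebpb lowest at 7.35 ± 0.955 TPM. Ddit3, which encodes the stress factor Chop, had 8.85, 6.72 and 11.2 TPM in replicates 2, 3 and 4. It was the only gene of the 10 further lists called between libraries at a ratio of 1.5 (1.63), where 16.1% of all genes tested and 4.08% of the protein-coding genes at 1 TPM in every library were. Replicate 3 was lowest for Ddit3 and highest for Ddit4 and Sesn2. Cebpb, at 6.70, 8.44 and 6.89 TPM in replicates 2, 3 and 4, had the same order as Ddit4 and Sesn2, on 123, 182 and 303 fragments. The other inducers were highest in replicate 2 or 4. Library differences also went with base composition, as given above, and Cebpb has 67.2% GC. Whether any of these orders reflects induction was not tested.

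**Figure D4:**
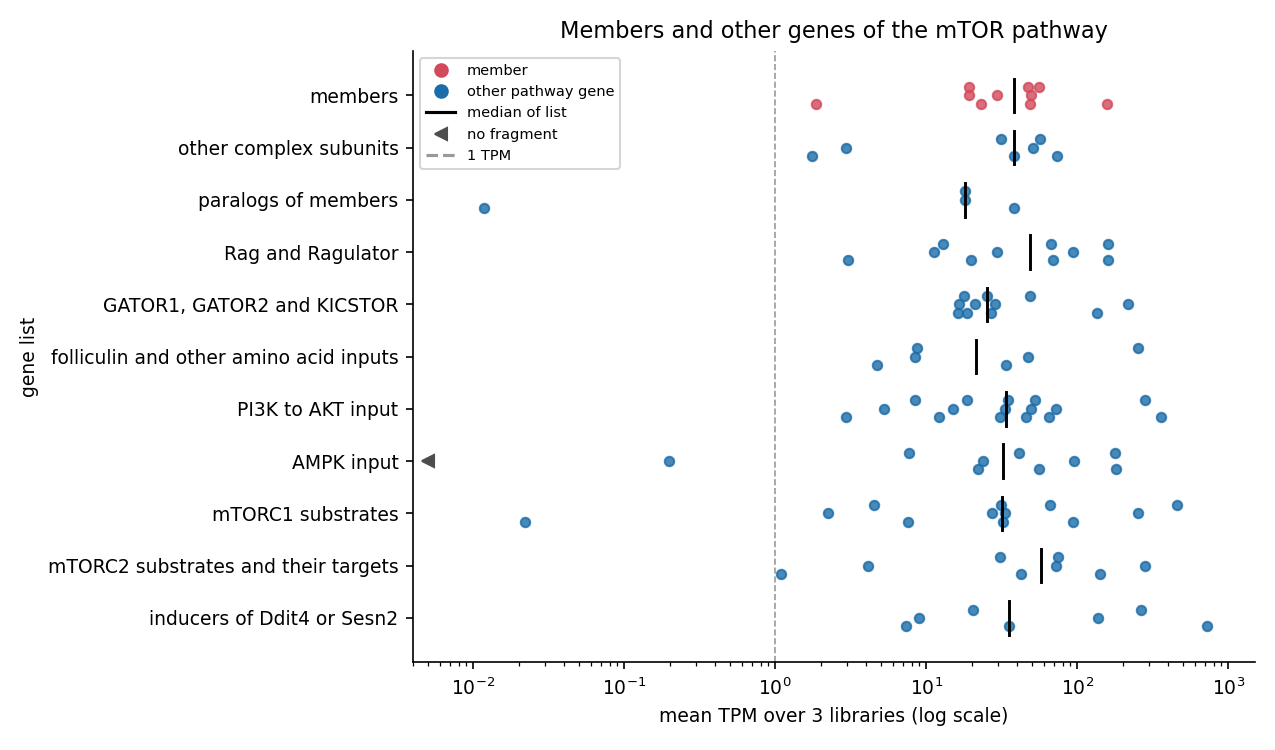
Mean TPM over 3 libraries (horizontal log axis) of the 10 genes and of 10 further lists of the pathway, one point per gene, with the list median as a bar and a triangle for a gene without a fragment. The median of the 10 genes is 38.2 TPM, and 4 genes have a mean left of the dashed line at 1 TPM: Ddit4l, Prkag3, Prkaa2 and Grb10.

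Across all protein-coding genes, the levels nearest to those of Mtor were of Nfatc2, Secisbp2 and Sgf29. Nearness was the root mean square difference of log2(TPM + 1) over the 3 libraries, at 0.03, 0.05 and 0.05. Nfatc2, a calcium-dependent transcription factor of T cells, had 46.4, 42.9 and 52.5 TPM in replicates 2, 3 and 4. All 3 genes had the same order of libraries as Mtor, which picking them by nearness favours. In all, 39 genes lay within 0.1 of Mtor by this measure, over only 3 libraries.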

How the data were processed

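The deposited files give, for each gene, a raw count of fragments and the merged exon length. Per the file headers, featureCounts 1.4.6-p4 counted read pairs over GENCODE M13 exons with strand option 2 (reverse-stranded); the build is mm10 per the labels. The aligner's version is not given in the sources used here. TPM was computed here from the deposited counts over merged exon length.

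Symbols came from GENCODE M21 by unversioned identifier (50376 of 50600 matched, all 10 members included). The longest transcript of a gene is the longest protein-coding one of the basic set of M21. For Mlst8 (3855 against 3366 bases) and Tsc2 (6266 against 6018 bases) it is longer than the merged M13 exons that were counted. Their TPM over that length thus divides by bases where no fragment could be counted. No member shared exons with a gene on the same strand. Similar transcripts were sought with BLAST 2.17.0.

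The members and lists were chosen with earlier results of these data known. The genes named are all members, further complex subunits and paralogs, the highest and lowest of each other list with any called between libraries, and the 3 genes nearest to Mtor. In places a gene level with the highest of a list, or above it over the longest transcript, is named too. Neighbours in level were called overlapping where their ranges did.

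There is 1 group, so edgeR's quasi-likelihood test could not be used. Rates were instead tested for equality across libraries by chi-square (2 degrees of freedom), for genes whose counts summed to at least 30, on TMM library sizes (edgeR 4.0.16, R 4.3.3), adjusted by Benjamini-Hochberg over all genes tested; size factors of DESeq2 1.42.0 were an alternative. Log2 CPM used a pseudocount of 0.5. For the CPM ratio, a library without a fragment of a gene was given 3 fragments, which limits the ratio of such genes. The test was checked on simulated counts that varied only as the test assumes (Poisson). These libraries differ by more, and the check does not cover that. Further steps used Python 3.11.15. In replicates 2, 3 and 4, 3 fragments on a gene of 1 kb made 0.246, 0.209 and 0.103 TPM. No molecular identifiers were used, so counts do not cover amplification error.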

Additional observations from a re-analysis of the deposited data

How the results depend on the processing

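Dividing by the longest protein-coding transcript, an alternative chosen after seeing the data, reversed Rheb minus Mtor (0.57) and Mlst8 minus Mtor (-0.17). For Mlst8 the transcript used was longer than the exons counted. This division moved all 10 levels, by 0.629 times for Mlst8 to 3.12 times for Rheb. The 5 differences kept their sign under a pseudocount of 0.1 TPM, unshared exon length, TMM scaling and leaving out each library. None of these settings could have changed a sign. A pseudocount or a library factor keeps the order of genes within a library, and unshared and merged lengths were equal for every member. Each difference also had the same sign in every library. Leaving out 1 library gave 0.26 to 0.43 for Rptor minus Rictor, -1.31 to -1.16 for Rheb minus Mtor, -1.32 to -1.24 for Tsc1 minus Tsc2, 0.20 to 0.34 for Mlst8 minus Mtor and 1.63 to 1.68 for Ddit4 minus Sesn2. Scaling over protein-coding genes outside the mitochondrial genome moved levels by 1.06 to 1.07 times. All 10 genes stayed at 1 TPM or more under every alternative run.

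Genes called between libraries numbered 1496 of 13688 tested. They numbered 2816 of 20470 without a filter on low counts, and 9685 of 13688 by adjusted p alone. The latter alternative was also chosen after seeing the data. Leaving out 1 library gave 774 of 13242 without replicate 2, 514 of 13183 without replicate 3 and 530 of 12377 without replicate 4. The filter and the libraries kept changed which genes were tested, so these counts do not share a denominator. Members called numbered 0 in all of these but adjusted p alone, which called 8. Under the main rule, 0.635% of the protein-coding genes at 1 TPM in every library were called, so 0 does not set the members apart. No paired analysis was possible because there is 1 group. Depth limits Deptor most, at 188 to 437 fragments.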
